A study of Mus musculus with 6 samples.

Results

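The cells described here are endothelial cells of the fracture callus that carried little or no arterial and venous marker RNA, a class that holds the capillary and sinusoidal endothelium. They were chosen by unique molecular identifiers (UMIs, the counted RNA molecules of a cell): at least 5 summed UMIs of Pecam1, Cdh5, Kdr, Emcn and Plvap, at most 1 of the leukocyte gene Ptprc, fewer than 3 of the pericyte gene Rgs5, fewer than 2 of the arterial genes Gja5, Sox17 and Hey1 together, and fewer than 2 of the venous genes Selp and Ackr1 together. In all, 2568 of the 38001 barcodes with at least 1000 UMIs and at most 10% mitochondrial UMIs passed, out of 46944 barcodes in the matrices. These genes chose the cells, so their levels are a description and carry no test.

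The libraries came from a study of Piezo1, a stretch-activated cation channel, in chondrocytes during endochondral fracture repair. Single-cell RNA was captured from enzyme-dissociated callus of mice 14 days after femoral fracture, in 3 control libraries and 3 libraries labelled knockout. The control label is wt, and the study describes tamoxifen-treated Piezo1 f/f mice. The knockout label is Col2CreERT; Piezo3-/-, and the study describes Piezo1 f/f mice with a tamoxifen-inducible Cre under the Col2a1 promoter. Mice of both groups were described as male and 12 weeks old, with 75 mg/kg tamoxifen on 5 consecutive days from day 5. The Cre was therefore aimed at Col2a1-expressing chondrocytes and not at endothelium. A whole callus also holds marrow, cartilage, bone and muscle vessels, which the gate cannot tell apart. The labels name each callus as coming from a mouse without numbering the animals, and the study's text gives group sizes for this experiment that differ between its sections, so p-values here measure only the spread between these libraries.

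Some libraries stood apart before any comparison. The labelled knockout 1 library held 21 of the gated cells, against 122, 550 and 523 in controls 1 to 3 and 911 and 441 in labelled knockouts 2 and 3. The summed UMIs of the gated cells were 2350779, 4686317 and 3364799 in the controls and 385790, 7059300 and 5446716 in the libraries labelled knockout. An amount of 3 UMIs, taken as the detection floor, therefore corresponded to 7.70 CPM (gene UMIs relative to all UMIs of the library's gated cells, scaled by TMM and compared between libraries, not between genes) in labelled knockout 1 and to 0.423 to 1.30 CPM in the others. The gated cells of labelled knockout 3 had 794 CPM of Xist and no UMI of Ddx3y, Eif2s3y, Uty or Kdm5d, whereas the other 5 libraries held Y-linked RNA and at most 0.282 CPM of Xist. That library thus went against the described male sex, and values without it are given for the shares, most of the genes with the smallest p and several gene list medians. Over all barcodes, replicate 1 of both groups had the lowest depth, with medians of 2554 and 2728.5 UMIs per barcode against 5691 to 9289.5 in the other libraries. Among the gated cells this did not hold. Control 1 had the highest median there, 10474 UMIs, and labelled knockout 1 had 6197, against 4958 to 9646 in the other libraries. Each pair of libraries shared between 4 and 36 barcodes, at most 0.383% of the smaller library.

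Capillaries are thin tubes of endothelium with little or no muscle coat, where solutes, hormones and lipids cross between blood and tissue. Sinusoids are the wide, leaky capillaries of marrow and liver, whose lining expresses scavenger receptors such as Stab1 and Stab2. In a healing fracture, sprouting capillaries follow the hypertrophic cartilage as it is replaced by bone, led by tip cells that respond to VEGF through Kdr. Endothelial genes are commonly read by ETS-family factors such as Erg and Fli1, whose core binding letters are GGAA.

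To show the sequence context of endothelial genes, of which Emcn and Kdr belong to the gate, the 250 bases before a RefSeq start of Emcn, Tie1 and Kdr are printed (GRCm38.p6). Emcn encodes endomucin, a sialoglycoprotein of capillary and venous endothelium, Tie1 an orphan receptor of the angiopoietin system, and Kdr the main VEGF receptor. Capitals mark GGAA and its reverse complement TTCC, with 4 matches for Emcn (chr3:137340828-137341077, plus strand), 7 for Tie1 (chr4:118489850-118490099, minus strand) and 4 for Kdr (chr5:75978456-75978705, minus strand). The GENCODE model of Tie1 begins further upstream, so that 212 of its 250 printed bases lie within that gene model, against 11 for Emcn and 3 for Kdr.
Emcn: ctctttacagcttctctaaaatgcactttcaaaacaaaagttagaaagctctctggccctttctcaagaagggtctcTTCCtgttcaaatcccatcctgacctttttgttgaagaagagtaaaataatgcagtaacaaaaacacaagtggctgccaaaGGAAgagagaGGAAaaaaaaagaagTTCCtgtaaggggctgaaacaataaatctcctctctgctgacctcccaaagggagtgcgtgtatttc
Tie1: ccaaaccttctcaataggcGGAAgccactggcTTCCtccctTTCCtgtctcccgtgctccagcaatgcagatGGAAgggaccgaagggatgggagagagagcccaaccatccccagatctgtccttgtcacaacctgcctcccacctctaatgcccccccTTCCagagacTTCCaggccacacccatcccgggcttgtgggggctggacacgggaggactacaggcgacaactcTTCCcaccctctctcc
Kdr: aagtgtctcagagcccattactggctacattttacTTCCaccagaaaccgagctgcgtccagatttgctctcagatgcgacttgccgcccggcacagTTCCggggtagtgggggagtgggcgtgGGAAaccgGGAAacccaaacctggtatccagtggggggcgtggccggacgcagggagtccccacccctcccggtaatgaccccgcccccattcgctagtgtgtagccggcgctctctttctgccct

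Of the 20 endothelial identity genes listed for this work, 11 were matched in the promoter table, with 15 promoters. GGAA or TTCC was present in 13 of these 15 (86.67%) and in 30698 of all 32851 promoters of this length (93.45%). The longer form AGGAAG or CTTCCT, which contains the shorter one, was present in 9 of 15 (60%) and in 9686 of 32851 (29.48%). A match is a description of letters and not of binding.

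The gated cells had a median of 6589.5 UMIs, 2800.5 genes, 2.719% mitochondrial UMIs and 32 UMIs of the 5 gate genes. At the edge of the gate, 106 cells had exactly 5 gate UMIs, 835 had 1 arterial UMI, 421 had 1 venous UMI and 186 had 1 Ptprc UMI. Of 15 endothelial genes that the gate did not use, 2552 of 2568 cells held at least 3 UMIs and 16 held 0 to 2.

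The endothelial markers were abundant in every library. Plvap, which forms the diaphragms of fenestrated capillaries, was at 699.8, 1260.4 and 1116 CPM in controls 1 to 3 and 426, 1446 and 1502 CPM in labelled knockouts 1 to 3. Emcn was at 321, 771 and 757 CPM in the controls and 293, 1016 and 917 CPM in the libraries labelled knockout. Both were lowest in control 1 and labelled knockout 1, and their groups overlapped. Without the cells rich in stromal RNA described further on, Plvap in those libraries was at 1378 and 928 CPM and Emcn at 653 and 649.7 CPM. Cells with at least 3 UMIs of Ptprc and at most 1 gate UMI, which should lack these genes, had a mean of 7.06 CPM of Plvap and 4.32 CPM of Emcn.

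Gpihbp1 and Aplnr, markers of capillaries that the gate did not use, were abundant as well. Gpihbp1 moves lipoprotein lipase to the capillary lumen (chr15:75596628-75599481, plus strand) and was at 282, 560.3 and 236 CPM in the controls and 290.0, 825 and 687 CPM in the libraries labelled knockout. Aplnr, the apelin receptor (chr2:85136225-85139923, plus strand), was at 267, 431 and 546 CPM against 151, 931 and 364 CPM. Without the stromal-rich cells Gpihbp1 in replicate 1 of each group was at 616 and 716 CPM, and Aplnr at 573 and 391 CPM. With all gated cells neither gene separated the groups (log2 fold change 0.75, SE 0.48, for Gpihbp1 and 0.23, SE 0.61, for Aplnr). Without the stromal-rich cells the groups no longer overlapped for Gpihbp1, at 616, 639 and 277 CPM against 716, 1002 and 896 CPM (0.78, SE 0.34, edgeR adjusted p = 0.5991). With each cell thinned to 1000 UMIs, Gpihbp1 was detected in 39.5% of the gated cells (71.9% without thinning) and Aplnr in 43.1% (76.9%). In Ptprc-positive cells thinned in the same way, the shares ran from 0.076% to 1.688% for Gpihbp1 and from 0% to 1.477% for Aplnr. Median depths of the Ptprc-positive cells were between 3823 and 15257 UMIs. Against the venous cells of the same libraries Gpihbp1 was higher in 6 of 6 (median log2 ratio 1.30), and against the arterial cells it was lower in 6 of 6 (-0.43). Without stromal-rich cells in either class, Gpihbp1 stood at -0.02 against arterial cells, higher in 3 of 6 and lower in 3. Aplnr was higher than in arterial cells in 4 of 6 (0.39) and lower than in venous cells in 6 of 6 (-0.42), and without stromal-rich cells in 6 of 6 (0.57) and 5 of 6 (-0.16). Neither gene was thus higher than in both other endothelial classes.

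The sinusoidal name was borne out only in part. Stab2, a scavenger receptor of sinusoidal endothelium, was at 3.02, 6.5 and 16.0 CPM in the controls and at 0, 8.88 and 1.88 CPM in the libraries labelled knockout, and 103 cells (4.01%) held a UMI. Thinned, Stab2 was seen in 1.13% of cells, against 0% to 0.316% of Ptprc-positive cells. Clec4g and Gata4, markers of liver sinusoids, had no UMI in any gated cell, and Oit3 had a mean of 0.862 CPM. Stab1, which macrophages also express, was at 91.6, 153 and 260.0 CPM in the controls and 38.5, 361 and 140.4 CPM in the libraries labelled knockout, beside a mean of 139 CPM in Ptprc-positive cells. Genes known from capillaries were thus widespread in the class, and markers specific to sinusoids were rare.

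**Figure D1:**
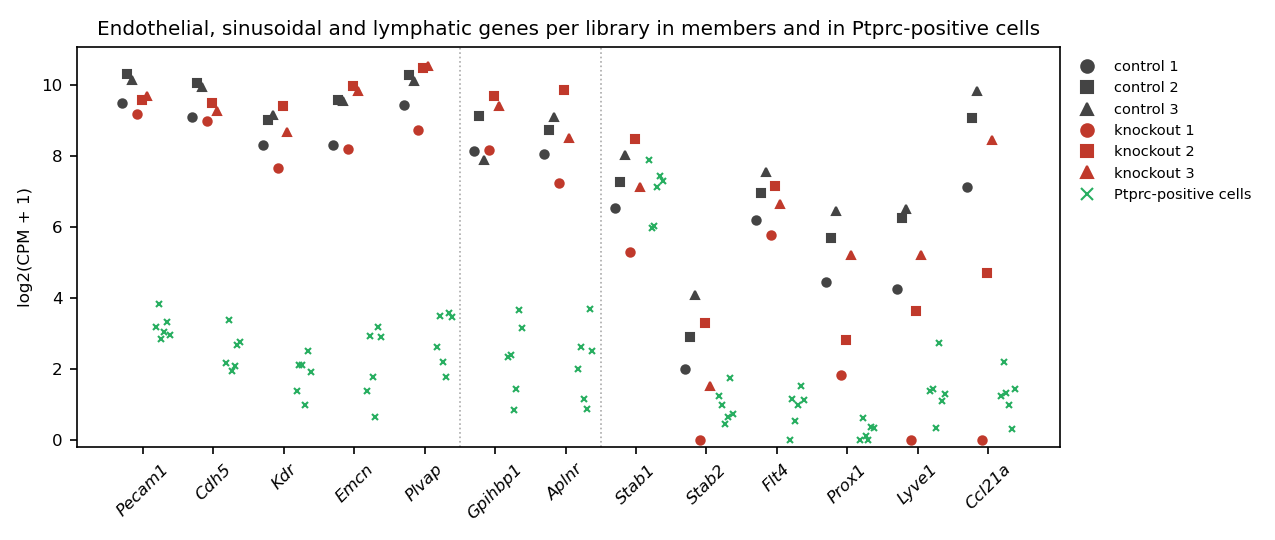
Level of 13 marker genes in the gated endothelial cells, as log2(CPM + 1) on the vertical axis, with a point for each control library (grey) and each library labelled knockout (red). Circles, squares and triangles are replicates 1, 2 and 3, and green crosses are the Ptprc-positive cells of the same libraries. Gate genes, Gpihbp1 and Aplnr lie far above the crosses in all 6 libraries, whereas Stab2 lies near them.

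A set of lymphatic cells passed the gate as well. Prox1, the transcription factor that specifies lymphatic endothelium, was at 20.7, 51.0 and 86.8 CPM in the controls and 2.57, 6.06 and 36.5 CPM in the libraries labelled knockout. Cells with at least 3 UMIs of Prox1, Mmrn1, Lyve1 and Reln, a rule set after their values had been seen, were called lymphatic-like and numbered 172 (6.70%). Relative to the other gated cells, their median log2 ratio over 5 libraries was 9.81 for Ccl21a, a lymphatic chemokine, 6.61 for Tbx1, a transcription factor of lymphatic development, and 5.0 for Pdpn, the lymphatic surface marker podoplanin. All 3 genes were higher in 5 of 5 libraries. Capillary genes were lower in 5 of 5, with ratios of -3.28 for Gpihbp1, -3.51 for Aplnr and -1.59 for Emcn. Stab2 was not enriched in them (-0.37, higher in 2 of 5). Stab1 (1.37) and Flt4, the receptor for VEGF-C (2.49), were higher in them in 5 of 5.

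The lymphatic-like cells were 5.74%, 11.6% and 13.6% of the gated cells in controls 1 to 3 and 0%, 0.768% and 5.22% in labelled knockouts 1 to 3. The groups did not overlap, at 10.3% ± 4.08 and 1.99% ± 2.82 (SD, n = 3), but this separation was lost in several other settings. They overlapped when cells were thinned to 1000 UMIs, where the difference was -5.26 percentage points, and also at a limit of 5% mitochondrial UMIs (-7.65), without the highest Scrublet doublet scores (-8.05) and without stromal-rich cells (-8.17). The smallest gap was between 5.74% in control 1, which rested on 7 of 122 cells, and 5.22% in labelled knockout 3, the library without Y-linked RNA. In labelled knockout 1 the count was 0 of 21 cells, which allows a share of up to 14.29%. Because this set was picked on its values, it was given no test. Without labelled knockout 3 the difference of -8.32 percentage points was -9.93, and without labelled knockout 1 it was -7.33. The 6 genes of the lymphatic marker list added up to 267, 834 and 1374 CPM in the controls and 41.1, 63.7 and 488 CPM in the libraries labelled knockout, with Ccl21a the most abundant. Ccl21a itself was at 140.0, 540.0 and 918 CPM against 0, 25.4 and 350.4 CPM, and like the sums its groups overlapped.

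Stromal RNA was present in part of the gated cells. In 234 of them (9.11%), more than 5% of UMIs came from 33 marker genes of chondrocytes, osteoblasts and fibroblasts. These stromal-rich cells were 21.3%, 3.46% and 4.02% of the gated cells in the controls and 28.6%, 7.90% and 20.4% in the libraries labelled knockout. They held 24.0% of all UMIs of the class, with a median of 20532.5 UMIs per cell against 6214.5 in the other gated cells. By library this share was 56.9%, 10.2% and 12.3% in the controls and 63.4%, 18.9% and 32.5% in the libraries labelled knockout, so that most UMIs summed in control 1 and labelled knockout 1 came from stromal-rich cells. In those libraries the stromal-rich cells held a median of 1.59 and 1.84 gate UMIs per 10000 UMIs, against 49.1 and 37.0 in the other gated cells, and their endothelial name rests on little RNA. Col2a1, the cartilage collagen and most abundant chondrocyte marker, was at 20977, 3796 and 523 CPM in the controls and 12767, 37.8 and 11144 CPM in the libraries labelled knockout. Leaving out the stromal-rich cells changed whether the groups overlapped for several genes described by library, and their values without these cells are given with them. Without these cells the summed level of the 20 endothelial identity genes was 13182, 13667 and 13142 CPM in the controls and 11499, 13448 and 12229 CPM in the libraries labelled knockout, a narrower spread than with them (4725 to 11986 CPM). The sums without these cells were not scaled by TMM, whereas those with them were.

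The genes that set the gated cells apart from the passing cells outside all endothelial gates of the same library, which leave out arterial and venous endothelium, were mostly vascular. Outside the gate genes, the median log2 ratio was 5.40 for Aplnr, 5.38 for Fam167b, 5.37 for Gpihbp1 and 5.16 for Adgrl4, an adhesion receptor of sprouting endothelium. Ptprb, the phosphatase that restrains Tie2 signalling, was at 5.0, and Flt4, the receptor for VEGF-C, at 4.98. These 6 were higher in all 6 libraries. Ccl21a had the highest median at 6.12, but ranged from -0.82 to 6.92 and was higher in 5 of 6. The list was read from the cells that the gate had chosen, so it is a description.

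Gene programmes within the class were read after thinning each cell to 1000 UMIs, with at least 2 UMIs of a programme's genes required. Of 2567 cells, 1788 (69.7%) held the capillary lipid genes (Gpihbp1, Cd36, Rgcc, Fabp4, Aqp1 and Car4), 301 (11.7%) the tip genes (Esm1, Apln, Angpt2, Cxcr4, Pgf, Kcne3 and Lxn), 266 (10.4%) the sinusoidal genes (Stab1, Stab2 and Flt4) and 222 (8.65%) the cycling genes. The programmes may overlap, and 509 cells (19.8%) held none. A background share is not given for whole programmes, only for single genes. Thinned, Esm1 was seen in 3.82% of gated cells and 0% to 0.241% of Ptprc-positive cells, and Apln in 10.9% and 0.227% to 1.571%. Mki67, a gene of dividing cells, was seen in 5.26% of gated cells and 2.892% to 6.806% of Ptprc-positive cells. Ptprc-positive cells may divide as well, so for Mki67 their share is no background.

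The other genes that went with each programme were as follows. Cells with the lipid genes had higher Thrsp, a regulator of lipid synthesis (median log2 ratio to the rest 4.33), Rbp7, a retinol-binding protein (2.27), C1qtnf9 (2.08) and Btnl9 (1.81). Cells with the tip genes had higher Igfbp3, an insulin-like growth factor binding protein (2.04), in 5 of 5 libraries, and Stc1 (1.68) in 4 of 5. Lyve1 was also among the leading genes of these cells (1.79), and 32 of them (10.63%) were lymphatic-like. Cells with the cycling genes had higher Hmmr (5.41), Cenpe (5.07) and Kif11 (4.91), all parts of the mitotic spindle. Cells with the sinusoidal genes were led by lymphatic genes, with Lyve1 at 3.56, Ccl21a at 3.26 and Prox1 at 2.67. Of these, 60 were lymphatic-like, 22.56% of the sinusoidal set and 34.88% of the lymphatic-like set. Flt4 and Stab1, which chose the sinusoidal set, were themselves higher in the lymphatic-like cells (2.49 and 1.37). The leading genes of that set and this overlap therefore depend in part on the choice of genes and are descriptions.

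By label, the gated cells were 4.76%, 6.55% and 6.22% of passing barcodes in the controls and 0.981%, 9.58% and 6.32% in the libraries labelled knockout. The means of 5.84% ± 0.95 and 5.63% ± 4.34 (SD, n = 3) did not differ beyond the spread between libraries (difference -0.216 percentage points, two-sided exact permutation test, p = 0.9). Labelled knockouts 1 and 2 were the lowest and the highest of the 6. Without labelled knockout 1 the difference was 2.11 percentage points, and without labelled knockout 3 it was -0.563. With 3 libraries a group, the exact test cannot give a p below 0.1.

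The cycling share was the only one of the 4 programmes with groups that did not overlap. It was 5.79%, 7.09% and 7.27% in the controls and 19.0%, 8.12% and 13.6% in the libraries labelled knockout. The means were 6.71% ± 0.809 and 13.6% ± 5.46 (SD, n = 3), a difference of 6.88 percentage points (exact permutation test, p = 0.1, adjusted over the 5 shares 0.5). The value of labelled knockout 1 rested on 4 of 21 cells (95% Wilson interval 7.67% to 40.0%), and without that library the difference was 4.15 percentage points. Without labelled knockout 3 it was 6.87, and without replicate 1 of both groups 3.69. Without the stromal-rich cells it was 7.72 percentage points.

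The other programmes overlapped between the groups. Tip genes were found in 9.09%, 14.7% and 9.37% of control cells and in 19.0%, 9.11% and 16.6% of cells of the libraries labelled knockout (exact p = 0.3, adjusted 0.75), a difference of 3.84 percentage points that was 3.02 without labelled knockout 3 and 0.784 without replicate 1 of both groups. Sinusoidal genes were found in 2.48%, 6.55% and 14.9% against 0%, 13.9% and 4.99% (exact p = 0.7, adjusted 0.9). Their difference of -1.67 was -1.01 without labelled knockout 3, but 1.797 without control 3 and 1.485 without labelled knockout 1. It kept its sign in 5 of 8 settings that left out 1 library or a replicate number. Lipid genes were found in 65.3%, 78.5% and 59.7% against 66.7%, 69.7% and 71.7% (exact p = 0.8, adjusted 0.9). The difference of 1.51 was 0.355 without labelled knockout 3 and -2.58 without control 3. It kept its sign in 6 of 8 settings that left out 1 library or a replicate number. It was -4.24 without lymphatic-like cells and -10.4 with 3 or more gate UMIs. The intervals that the plot of shares shows for single libraries cover counting error only.

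**Figure D2:**
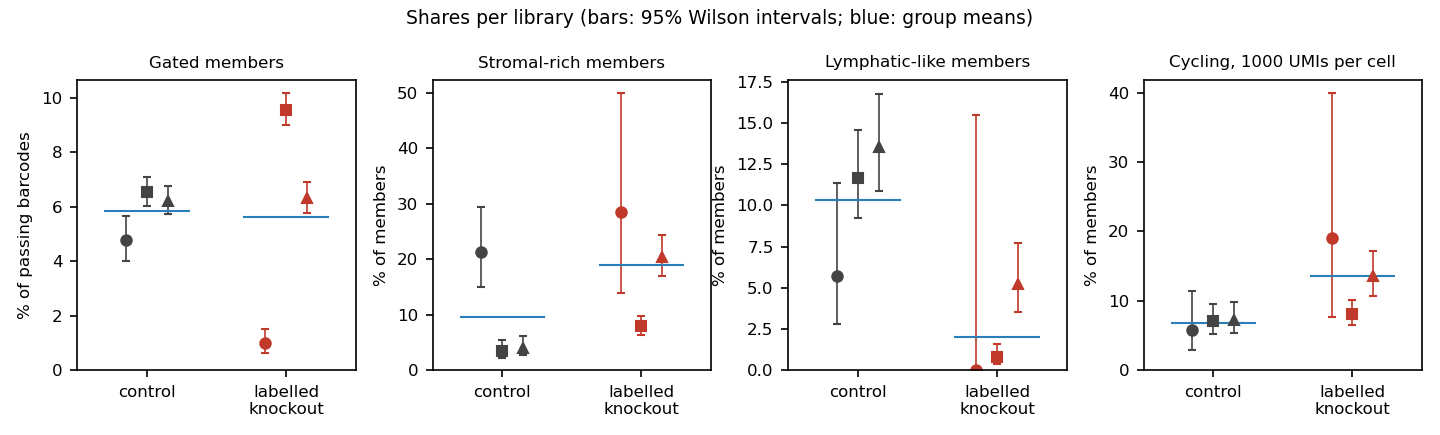
Shares in percent, by library, of the gated cells among passing barcodes and of stromal-rich, lymphatic-like and cycling cells among the gated cells. Grey points are controls, red points libraries labelled knockout, bars are 95% Wilson intervals and blue lines group means. The groups overlap for the first 2 shares, while every control lies above every library labelled knockout for the lymphatic-like share and below it for the cycling share.

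Levels were next set beside those of the arterial and venous cells of the same callus, 1510 and 1355 cells gated with the same filters. Those gates asked for at least 2 arterial or venous UMIs, which shallow cells reach less easily. Median UMIs per cell in controls 1 to 3 and labelled knockouts 1 to 3 were 15690, 8965, 6620.5, 20629, 8628 and 13158 in arterial cells. They were 8857.5, 8973, 5471, 10847, 7030.5 and 10035 in venous cells, and 10474, 7200.5, 4958, 6197, 5844 and 9646 in the gated cells. Shallow arterial or venous cells may lie in the gated class. Relative to arterial cells, the gated cells had lower Gja4, a gap-junction protein of arteries (median log2 ratio -3.42), lower Sema3g, an arterial semaphorin (-3.41), lower Eln, the elastin of the vessel wall (-1.84), and lower Cxcl12, a chemokine (-1.69). All 4 were lower in 6 of 6 libraries, also without stromal-rich cells. Relative to venous cells, they had lower Sele, the selectin that slows leukocytes (-4.28), lower Vwf, the platelet-binding factor of larger vessels (-4.06), and lower Lrg1 (-2.37). Vwf was lower than in arterial cells too (-1.81).

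Several tip-cell genes were higher than in venous cells, among 417 genes higher in all 6 libraries at a mean of at least 50 CPM. At the same cut, 605 genes were lower in all 6. Esm1, a proteoglycan of tip cells, was at a mean of 73.3 ± 46.2 CPM in the gated cells and 10.0 ± 15.5 CPM in venous cells (SD, n = 6 libraries; median log2 ratio 3.39). Unc5b, a netrin receptor of capillary sprouts (2.92), Kcne3, a potassium channel subunit (2.19), Igfbp3 (2.05) and Gpihbp1 (1.30) were also higher in 6 of 6. Of 16 tip and sprouting genes with at least 10 CPM, 10 were higher in all 6 libraries, with a median log2 ratio of 1.17, while 9.17% of all genes were higher in all 6 and 10.22% lower. The tip genes did not stand above arterial cells, where 0 of the 16 were higher and 5 lower in all 6 libraries (all genes 5.84% and 9.78%; median -0.45, and -0.31 without stromal-rich cells). Of 14 capillary and lipid genes, 4 were higher and 7 lower than in venous cells (median -0.33), and Plvap was lower in 6 of 6 (-0.42). Against arterial cells 0 of 15 were higher and 6 lower (-0.38). Without stromal-rich cells in either class, these counts were 5 higher and 1 lower against venous cells (all genes 9.32% and 7.5%) and 1 higher and 0 lower against arterial cells (4.18% and 6.21%). Against arterial cells, the highest ratios belonged to stromal genes, such as Thbs4 at 1.82, Panx3 at 1.78 and Col10a1 at 1.73. These were 0.43, 0.36 and 0.29 once stromal-rich cells had been left out of both classes. Of 9600 genes with at least 10 CPM, 939 were lower than in arterial cells in all 6 libraries and 561 higher, and 596 and 401 without stromal-rich cells. The gates were set on genes of the same cells, so these ratios are descriptions and not tests.

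**Figure D3:**
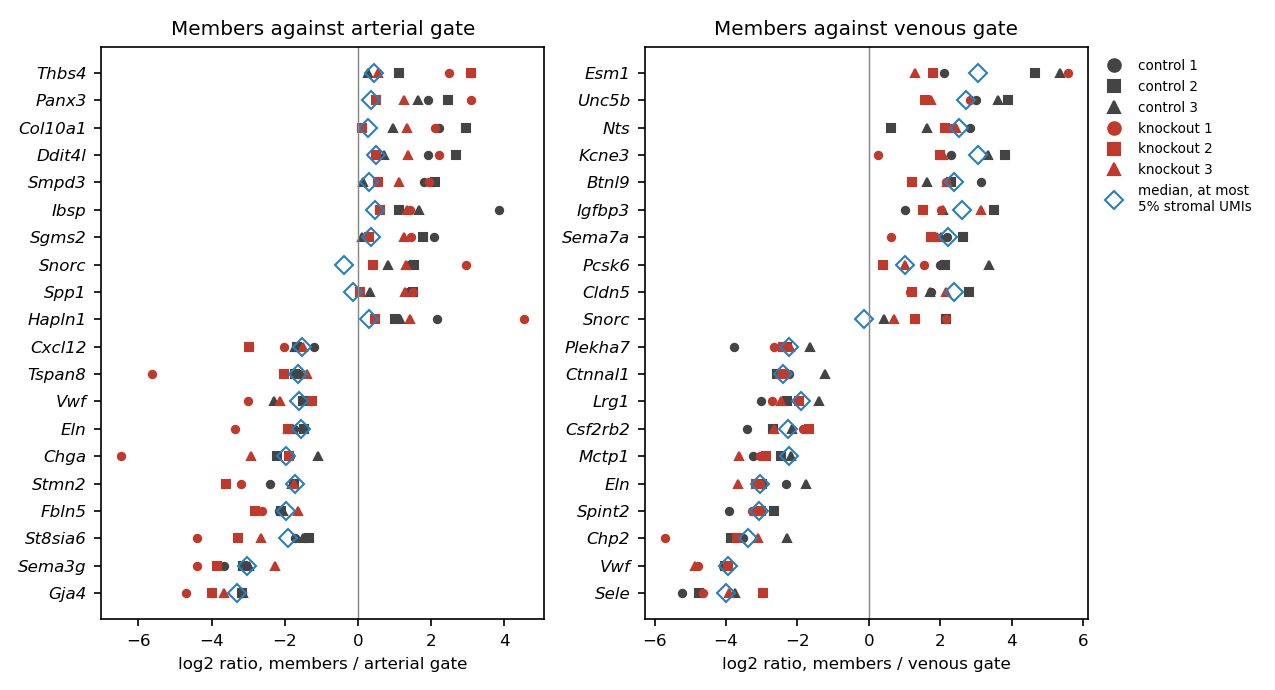
Log2 ratio of the CPM in the gated cells to that in arterial cells and in venous cells, by library, for the named genes. Grey points are controls, red points are libraries labelled knockout, and blue diamonds are the median ratios without stromal-rich cells. The diamonds of Thbs4, Panx3, Col10a1 and Snorc lie within 0.43 of 0, whereas those of Gja4, Sele and Esm1 keep their side.

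The question of the study, how loss of Piezo1 from chondrocytes alters the callus, was then asked of this endothelium by summing UMIs per library. Piezo1 itself (chr8:122481698-122551329, minus strand) was at 73.9, 87.0 and 98.5 CPM in the controls and 100.1, 80.7 and 69.7 CPM in the libraries labelled knockout. These groups overlapped (log2 fold change -0.07, SE 0.22, adjusted p = 0.999 by edgeR). The Cre was not aimed at endothelium, so this level does not check the knockout.

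Of 12878 genes tested by edgeR's quasi-likelihood test, 0 passed a Benjamini-Hochberg adjusted p of 0.05 (0.0%). At an unadjusted p under 0.05 there were 602 (4.67%), of which 323 had higher values in the libraries labelled knockout (2.51%) and 279 lower (2.17%). The groups did not overlap for 1451 genes (11.3%), 725 higher (5.63%) and 726 lower (5.64%). In simulated counts of the same size, the test found 7% of the genes given a log2 change of 1 and 64% of those given 2, so smaller changes would mostly have been missed. It also called 3 unchanged genes. The changed genes were drawn from the more abundant genes only, so these rates do not cover less abundant genes such as Dlk1, Slc14a1 and Tbx1. DESeq2 called 5 genes, namely Mmp9 and Dlk1 with higher values and St8sia6, Tbx1 and Slc14a1 with lower values (adjusted p from 0.0002503 to 0.04173). Dlk1, a Notch-like protein of progenitor cells, was at 0.864, 1.02 and 0.285 CPM in the controls and 41.1, 9.02 and 3.55 CPM in the libraries labelled knockout. Slc14a1, a urea transporter, was at 6.48, 55.1 and 20.8 CPM against 2.57, 1.41 and 3.76 CPM. Neither overlapped. The value of Dlk1 in labelled knockout 1 stood on 16 UMIs, and on 1 UMI (7.11 CPM, under the detection floor) without stromal-rich and lymphatic-like cells. That of Slc14a1 stood on 1 UMI. Without those cells and without TMM scaling Slc14a1 overlapped, at 6.35, 61.7 and 26.7 CPM against 7.11, 1.76 and 3.15 CPM. With only the stromal-rich cells left out and with TMM scaling Slc14a1 did not overlap, at 7.71, 62.7 and 24.5 CPM against 6.63, 1.77 and 3.33 CPM. The log2 fold change of Dlk1 (4.18) was 3.06 without labelled knockout 1, 4.80 without labelled knockout 3 and 1.19 with 3 or more gate UMIs. That of Slc14a1 (-3.46) was -2.48 without control 2 and -4.17 without labelled knockout 3. Without a filter on low counts edgeR called St8sia6 alone (adjusted p = 0.03154).

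St8sia6, a sialyltransferase that builds chains of sialic acid on glycoproteins, had the smallest p (chr2:13651021-13794064, minus strand). It was at 21.6, 38.2 and 34.0 CPM in the controls and 5.13, 4.79 and 5.43 CPM in the libraries labelled knockout. The groups did not overlap, and the value of labelled knockout 1 stood on 2 UMIs. This is a difference of -2.61 on the log2 scale (SE 0.32), with an edgeR adjusted p = 0.75, and of -2.63 without stromal-rich cells. It was -2.62 without labelled knockout 1 and -2.71 without labelled knockout 3. The gene was lower than in arterial cells (median log2 ratio -2.19), where it was at 72.5, 102 and 102 CPM in the controls and 130, 55.6 and 35.4 CPM in the libraries labelled knockout, with overlap. Within the class it was also higher in cells with tip genes (2.09, in 4 of 5 libraries).

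The other 5 lower genes with the smallest p had adjusted p of 0.9318. Eln (chr5:134702593-134747323, minus strand) was at 83.8, 100.4 and 63.4 CPM in the controls and 30.8, 31.3 and 37.6 CPM in the libraries labelled knockout (log2 fold change -1.30, SE 0.24). Abca1, the cholesterol efflux pump (chr4:53030787-53159895, minus strand), was at 116, 152 and 132 CPM against 74.4, 67.1 and 64.3 CPM (-0.97, SE 0.20). Neither gene's groups overlapped, and without labelled knockout 3 the values were -1.44 for Eln and -0.95 for Abca1. Tbx1 (chr16:18580979-18590671, minus strand) was at 10.4, 14.2 and 26.8 CPM against 0, 1.55 and 3.13 CPM (-3.02, SE 0.60), and 6.61 was its log2 ratio in the lymphatic-like cells, whose share moved with it. Without the lymphatic-like cells Tbx1 was under the count filter and was not fitted. Pgm5, a phosphoglucomutase-like protein of adherens junctions, and Mfsd6, a membrane transporter-like protein, had log2 fold changes of -2.07 and -1.06, also with no overlap. Without labelled knockout 3 these were -2.58 and -1.03, and that of Tbx1 was -3.65. Without stromal-rich cells Mfsd6 was at 48.2, 38.3 and 31.1 CPM against 39.8, 17.0 and 16.3 CPM, which overlapped. Pgm5 stood on 1 UMI in labelled knockout 1. Without stromal-rich and lymphatic-like cells, and without TMM scaling, Pgm5 was at 16.9, 4.10 and 2.09 CPM against 7.11, 1.06 and 1.14 CPM. Abca1 was then at 214, 163 and 121 CPM against 128, 68.7 and 52.6 CPM, so that both overlapped. With only the stromal-rich cells left out and with TMM scaling, neither overlapped. Pgm5 was there at 36.6, 12.5 and 12.1 CPM against 6.63, 2.48 and 5.75 CPM. Abca1 was at 210, 171 and 147 CPM against 119, 70.6 and 71.1 CPM.

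The 6 higher genes with the smallest p were of low abundance. Akr7a5, an aldo-keto reductase (chr4:139310744-139318426, plus strand), was at 23.3, 19.9 and 21.1 CPM in the controls and 43.6, 37.2 and 40.5 CPM in the libraries labelled knockout (log2 fold change 0.90, SE 0.20, adjusted p = 0.9318). 1700021F05Rik was at 12.5, 14 and 12.8 CPM against 30.8, 24.9 and 25.3 CPM (1.00, SE 0.23). Dok5, an adaptor of receptor tyrosine kinases, was at 1.73, 0.813 and 1.14 CPM against 10.3, 5.35 and 5.43 CPM (2.37, SE 0.51). None of the 3 overlapped, and without labelled knockout 3 their values were 0.86, 1.01 and 2.49. Without stromal-rich cells Akr7a5 did overlap, at 19.3, 19.8 and 21.1 CPM against 19.9, 36.1 and 36.3 CPM, and Dok5 was under the count filter. Without stromal-rich and lymphatic-like cells, and without TMM scaling, Dok5 was at 1.06, 0.273 and 1.67 CPM against 7.11, 2.11 and 1.14 CPM, with overlap and with 1 UMI in labelled knockout 1. Slc15a2, a peptide transporter, was at 2.16, 1.83 and 2.00 CPM against 2.57, 11.1 and 10.0 CPM, with 1 UMI in labelled knockout 1. Fyb and Mmp8 are leukocyte genes, with 279 and 268 CPM in Ptprc-positive cells against at most 18.2 and 10.9 CPM in the gated cells. Without stromal-rich and lymphatic-like cells Mmp8 was at 0 CPM in labelled knockout 1, so that its groups overlapped.

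**Figure D4:**
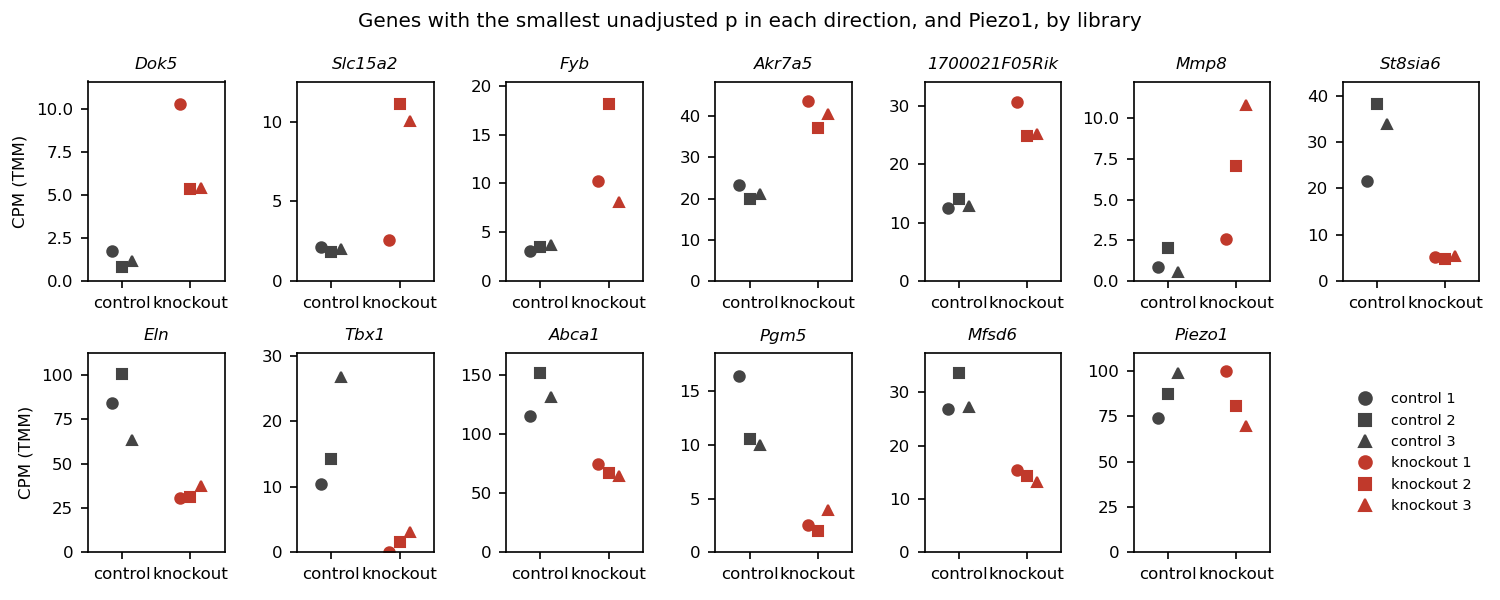
CPM by library, after TMM scaling, of the 12 genes with the smallest p in either direction and of Piezo1 in the gated endothelial cells, each on its own axis from 0. Grey points are controls and red points are libraries labelled knockout, with circles, squares and triangles for replicates 1, 2 and 3. The groups of the 12 genes do not overlap, and those of Piezo1 do.

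Marker RNA of immune cells was present in the gated cells of every library. The 10 neutrophil markers summed to 79.9, 1491 and 1528 CPM in the controls and 739, 2825 and 4201 CPM in the libraries labelled knockout, led by S100a9. The 11 macrophage markers summed to 166, 358 and 516 CPM against 264, 1253 and 621 CPM, led by Lyz2. Both sums overlapped between the groups. Median log2 fold changes were 1.26 for the neutrophil list, with 1 of 9 tested genes higher at an unadjusted p under 0.05, and 1.40 for the macrophage list, with 4 of 11, beside 2.51% of all genes. The neutrophil median was 0.65 without control 1 and 1.93 without control 2, and the macrophage median 0.59 without labelled knockout 2. None of the listed genes of either type was at 0 UMIs in all gated cells. Tyrobp, a signalling adaptor of myeloid cells, was at 10.4, 44.5 and 54.2 CPM against 66.7, 239.8 and 116 CPM (log2 fold change 1.97), beside 2128 CPM in Ptprc-positive cells. Mmp9, a gelatinase of neutrophils and osteoclasts, was at 25.1, 12.4 and 19.1 CPM against 23.1, 438 and 117 CPM, beside 879.9 CPM in Ptprc-positive cells, and its groups overlapped. Its log2 fold change of 3.41 was 2.02 without labelled knockout 2 and 3.64 without labelled knockout 3. Without stromal-rich cells the groups of Mmp9 did not overlap, at 14.5, 13.5 and 17.6 CPM against 33.1, 380.4 and 80.5 CPM. The 11 osteoblast markers had 2 higher and a median of 0.69 (2.32 without control 1 and 2.45 without replicate 1 of both groups), with Bglap, the osteocalcin gene, at 22.5, 18.3 and 8.85 CPM against 28.2, 696 and 119 CPM. Without stromal-rich cells Bglap was at 15.4, 8.68 and 6.91 CPM against 0, 108.8 and 17.8 CPM, which overlapped. The part of this RNA in higher values of the libraries labelled knockout was not tested.

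The gene lists drawn up for this work are given by counts beside the background of 2.51% higher and 2.17% lower at an unadjusted edgeR p under 0.05. Below, higher and lower count genes past that threshold. Some lists hold genes that chose the cells, such as Cdh5 in the identity list and Kdr in the VEGF list. The levels of those genes carry no test, so the counts and medians of such lists are descriptions. Of 20 endothelial identity genes, 0 were higher and 1, Erg, was lower, with a median log2 fold change of -0.21 against 0.0434 over all genes. Cdh5, the adherens junction cadherin, was at 552, 1064 and 987 CPM in the controls and 506, 720.2 and 615 CPM in the libraries labelled knockout. Those groups overlapped. Among 20 endothelial transcription factors 0 were higher and 2 lower (median -0.35), and 17 had negative values. Erg was at 111, 119 and 105 CPM against 74.4, 90.2 and 68.0 CPM (-0.53, SE 0.20), and Fli1 at 138, 155 and 140.4 CPM against 118, 105 and 85.6 CPM (-0.51, SE 0.21). Neither overlapped, and neither passed adjustment (0.9318). Without stromal-rich cells Erg was at 176, 136 and 123 CPM against 139, 107 and 83.5 CPM, which overlapped. Fli1 overlapped too, at 246, 179.6 and 163 CPM against 219, 123 and 106 CPM.

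For the VEGF system, 0 of 11 receptors and ligands were past the unadjusted threshold (median -0.11). Kdr, a gate gene, is among them, so this count is a description. Kdr was at 319, 524 and 569 CPM in the controls and 203, 683 and 413 CPM in the libraries labelled knockout, and Flt1, the decoy VEGF receptor, at 517, 998 and 889 CPM against 413, 790.1 and 667 CPM. Both overlapped, but without stromal-rich cells Flt1 did not, at 1040.0, 1161 and 1047 CPM against 1014, 938 and 857 CPM. In the angiopoietin and Tie list 0 of 6 were past it (-0.21). Of 13 Notch genes, 0 were higher and 1, Jag1, was lower (-0.34). Dll4, the Notch ligand of tip cells, was at 36.3, 109 and 86.5 CPM against 30.8, 50.2 and 55.9 CPM, which overlapped.

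Of 16 tip and sprouting genes 0 were higher and 1 lower (median -0.30), of 15 capillary and lipid genes none in either direction (-0.29), and of 9 sinusoidal genes 0 and 1 (-0.49). The lower tip gene was Chst1, a sulfotransferase, at 57.5, 71.5 and 55.7 CPM against 25.7, 29.7 and 50.7 CPM. The lower sinusoidal gene was Il6st, the shared receptor of interleukin-6 cytokines, at 209.9, 209 and 172 CPM against 157, 136 and 90.6 CPM. Neither overlapped. Fabp4, the fatty acid binding protein of capillaries, was at 2045, 5761 and 1687 CPM against 2063, 1871 and 2721 CPM. Control 2 alone was high, and the groups overlapped. Arterial genes, of which the gated cells hold little, had 0 higher and 3 lower of 11 (-0.58), namely Efnb2, Fbln5 and Jag1, and venous and leukocyte adhesion genes 0 and 0 of 11 (-0.29). Efnb2, the arterial ephrin, was at 73.4, 143 and 138 CPM against 33.4, 68.3 and 74.3 CPM, which overlapped by less than 1 CPM. Without stromal-rich cells Efnb2 did not overlap, at 140.7, 161 and 162 CPM against 59.7, 82.6 and 88.6 CPM.

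Of 15 flow and mechanosensing genes, 0 were higher and 3 lower (median -0.23, -0.47 without stromal-rich cells). Thbd, thrombomodulin, which keeps the capillary lining anticoagulant (chr2:148404466-148408188, minus strand), was at 117, 199.7 and 198 CPM in the controls and 51.3, 88.3 and 99.96 CPM in the libraries labelled knockout (-1.07, SE 0.32). Without stromal-rich cells its levels were 235, 232 and 235 CPM against 113, 106 and 131 CPM (-1.0). S1pr1, the sphingosine-1-phosphate receptor that steadies vessels, was at 270.4, 434 and 322 CPM against 177, 173 and 242 CPM (-0.79). Neither overlapped, but without stromal-rich cells S1pr1 did, at 547, 499 and 375 CPM against 424, 206 and 316 CPM. Cav1, the caveolae coat protein, was at 645, 919.5 and 418 CPM against 439, 207 and 356 CPM (-0.99), with overlap. Klf2, the transcription factor induced by laminar flow, was at 466, 709 and 758 CPM against 369.5, 401 and 676 CPM, which also overlapped. None of these passed adjustment (0.9318 or above).

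Of 18 BMP and TGF-beta genes 0 were higher and 2 lower (median -0.13). Tgfbr2, the type II TGF-beta receptor (chr9:116084293-116175360, minus strand), was at 158, 183 and 189.5 CPM in the controls and 92.4, 113 and 99.96 CPM in the libraries labelled knockout (-0.79, SE 0.20). Bmpr2, the type II BMP receptor, was at 252, 245 and 240.1 CPM against 208, 151 and 155 CPM (-0.53). Neither overlapped, and the adjusted p of both was 0.9318. Without labelled knockout 3 the values of Tgfbr2 and Thbd were -0.81 and -1.29.

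Basement membrane genes had negative values in 15 of 16, with 0 past the unadjusted threshold in either direction (median -0.37, and -0.28 without stromal-rich cells). Col4a1, the main collagen of vessel basement membrane, was at 2138, 3411 and 2671 CPM in the controls and 1648, 2169 and 2282 CPM in the libraries labelled knockout, which overlapped. Col15a1, a collagen beneath capillaries, was at 565, 1067 and 564 CPM against 367, 438 and 512 CPM, with no overlap, but overlapped without stromal-rich cells (914, 1232 and 659 CPM against 902, 529.6 and 638 CPM). Angiocrine factors had 1 higher, Csf1, and 1 lower, Jag1, of 19 (-0.23). Csf1, the macrophage growth factor, was at 25.1, 16.1 and 21.1 CPM against 30.8, 32.3 and 32.6 CPM (0.63), and Kitl, the stem cell factor of marrow vessels, at 200.01, 304 and 179.8 CPM against 208, 102 and 136 CPM. Csf1 did not overlap and Kitl did. Without stromal-rich cells Csf1 overlapped, at 37.6, 16.6 and 21.4 CPM against 39.8, 31.3 and 34.8 CPM. Of 13 genes of endothelial-mesenchymal transition 0 were higher and 1, the contractile gene Tagln, was lower (-0.21).

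Among the lists with positive medians, 17 of 20 cell cycle genes had positive values (median 0.345, and 0.53 without stromal-rich cells), yet 0 were past the unadjusted threshold. Top2a, a topoisomerase of dividing cells, was at 86.8, 104 and 108 CPM in the controls and 234, 130.3 and 115 CPM in the libraries labelled knockout, with no overlap. Labelled knockout 1 was the highest, and its value without stromal-rich cells, 464 CPM, came from a library of 15 such cells. Interferon response genes were positive in 14 of 15 (0.58), with 0 past the threshold, and their median was 0.16 without labelled knockout 1, 0.24 without labelled knockout 2, 0.18 without replicate 1 of both groups and 1.06 without labelled knockout 3. Rsad2, an antiviral enzyme, was at 119, 60.9 and 57.9 CPM against 811, 100.2 and 24.6 CPM, so labelled knockout 1 was high and labelled knockout 3 the lowest of all 6. Without stromal-rich cells the same order held for Rsad2, at 2088 CPM in labelled knockout 1 and 28.7 CPM in labelled knockout 3. The 14 hypoxia and glycolysis genes had a median of 0.18 and the 10 antigen presentation genes 0.13, both with 0 past the threshold. The 13 senescence genes tested had a median of 0.18. The 17 immediate early and heat shock genes had 0 past it (-0.18), with Hspa1a, a heat shock protein, at 185, 639 and 838 CPM against 585, 107 and 1777 CPM.

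The remaining cell type markers gave the following medians. The chondrocyte list was at 0.24 (12 genes, 0 past the threshold), with sums of 47660, 7506 and 1499 CPM in the controls and 36329, 583 and 22816 CPM in the libraries labelled knockout. The fibroblast list was at -0.23 (10 genes), the pericyte and smooth muscle list at -0.28 (8 genes, 1 lower, again Tagln), the lymphocyte list at 0.31 (3 genes) and the megakaryocyte list at -0.07 (2 genes). The single skeletal muscle and Schwann gene tested had a log2 fold change of 0.94. The lymphatic list was at -1.90 with 2 of 6 lower, Mmrn1 and Pdpn, and all 6 genes had negative values. The erythroid list was at -4.35 with 1 of 5 lower, Hbb-bt, a beta globin, and its median turned to 0.60 without control 3. Hbb-bs, the other beta globin, was at 1729 CPM in control 3 against at most 28.6 CPM elsewhere.

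The list medians often rested on single libraries. On leaving out 1 library at a time, those of the tip (-0.73 to -0.17), arterial (-0.88 to -0.45), Notch (-0.49 to -0.03), angiopoietin and Tie (-0.43 to -0.03), BMP and TGF-beta (-0.27 to -0.06), flow (-0.71 to -0.30), basement membrane (-0.57 to -0.25), transcription factor (-0.57 to -0.15), endothelial-mesenchymal (-0.24 to -0.03), pericyte (-0.56 to -0.16) and lymphatic lists (-3.39 to -1.34) stayed negative. Those of the cell cycle (0.14 to 0.42), interferon, osteoblast, macrophage and neutrophil lists stayed positive. Without labelled knockout 3, the library without Y-linked RNA, the flow median was -0.71, the tip median -0.73 and the lymphatic median -3.39.

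Other medians turned sign. Without control 3 the sinusoidal median was 0.03, the VEGF median 0.04, the venous median 0.04, the immediate early median 0.01 and the megakaryocyte median 0.43. Without control 2 the capillary and lipid median was 0.22. Without labelled knockout 1 the endothelial identity median was 0.04, the VEGF median 0.09, the hypoxia median -0.01 and the megakaryocyte median 0.11. Without labelled knockout 2 the angiocrine median was 0.09, the antigen presentation median -0.34, the immediate early median 0.07 and the lymphocyte median -1.56. The VEGF median kept its sign there but moved to -0.57. Without control 1 the senescence and lymphocyte medians were -0.04 and the antigen presentation median -0.06. The chondrocyte median ran from -0.73 without labelled knockout 1 to 2.22 without control 1, and the fibroblast median from -1.29 to 0.82 without the same libraries. These lists thus had no stable direction.

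**Figure D5:**
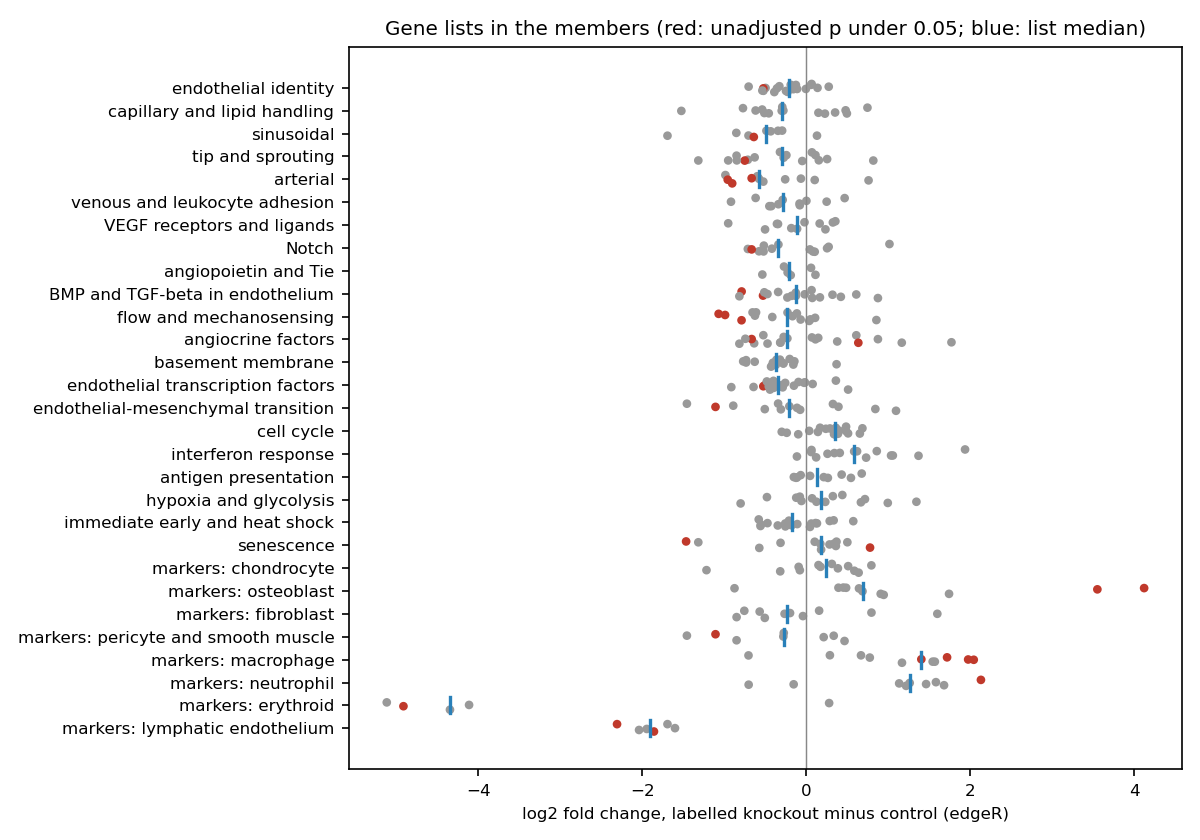
Log2 fold change of libraries labelled knockout against controls for each gene of each list, with lists on the vertical axis. Red points have an unadjusted p under 0.05, and blue ticks are list medians. Most endothelial lists have medians a little below 0, the lymphatic list lies at -1.90, and the interferon, macrophage and neutrophil lists lie above 0.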

How the data were processed

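Matrices of whole-number UMI counts were deposited by the authors, 1 for each of 6 10x 3′ (V3) libraries, and per the labels were made with Cell Ranger on GRCm38. Matrix headers name Cell Ranger 6.1.1 for replicate 1 of each group and 6.1.2 for the others. Total UMIs were 69361237, 77384286 and 80735192 in the controls and 57626530, 103784364 and 102513582 in the libraries labelled knockout. Genes were joined by identifier (52081 shared, at least 97.77% of UMIs in each library). The members and gene lists were chosen with earlier results of these data known. UMIs were summed over gated cells per library and tested with edgeR 4.0.16 in R 4.3.3 (filterByExpr, TMM, quasi-likelihood, two-sided, Benjamini-Hochberg over all genes tested); no list was tested as a set. Shares were compared by exact permutation over the 20 assignments of libraries (scipy 1.17.1). No doublets were removed, and leaving out the cells with the highest Scrublet scores (scanpy 1.11.5) was an alternative. Cells of 1 library are not replicates. CPM were not scaled by TMM in Ptprc-positive, arterial and venous cells or in comparisons between cell classes. The same holds for values without both stromal-rich and lymphatic-like cells. Genes were named when called, or as the 6 smallest p in each direction. Against other cells, the 20 highest log2 ratios were ranked, and against arterial and venous cells and in subsets the 10 highest, at a mean of at least 50 CPM (pseudocount 1 CPM). Members of the lists were named too. DESeq2 1.42.0 was an alternative, and leaving out stromal-rich or lymphatic-like cells or replicate 1 of both groups were alternatives chosen after seeing the data. The edgeR step was tested on simulated counts. Of the listed genes, 4 were not matched by symbol. Intervals and floors cover counting error only. A listed gene is not reported here.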

Additional observations from a re-analysis of the deposited data

How the results depend on the processing

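The count of called genes was 0 by edgeR in 25 of the settings run, 1 without a filter on low counts (St8sia6) and 5 with DESeq2. Leaving out stromal-rich cells gave 978 genes with an unadjusted p under 0.05 of 12121 and 0 calls. The main count of 602 such genes fell in other settings. It was 276 without control 2, 382 without control 3, 300 with 3 or more gate UMIs and 230 without replicate 3 of both groups. Over 26 alternatives, the median kept its sign in 26 for the lymphatic, cell cycle and basement membrane lists. This count was 25 for interferon response and 22 for capillary and lipid handling and for the erythroid list. It was 18 for hypoxia and glycolysis, 16 for antigen presentation and the chondrocyte list and 15 for the fibroblast list. The 12 named genes kept their direction in every alternative that gave a value. The difference in the share of gated cells (-0.216 percentage points) was 0.086 at a limit of 5% mitochondrial UMIs, 0.144 with at least 500 UMIs, 0.276 without lymphatic-like cells, 1.57 without replicate 1 of both groups, and -2.19 to 2.11 on leaving out 1 library. The tip share difference (3.84) was -0.34 with 3 or more gate UMIs (0.784 to 6.74 on leaving out 1 library or a replicate number). The sinusoidal difference (-1.67) was 3.87 without thinning, 0.318 without lymphatic-like cells, 1.8 without control replicate 3 and 2.46 without replicate 3 of both groups (-5.49 to 2.46). The lipid difference (1.51) was -10.4 with 3 or more gate UMIs, -4.24 without lymphatic-like cells, -2.58 without control replicate 3 and -3.73 without replicate 3 of both groups (-3.73 to 6.87). On leaving out 1 library or a replicate number, the cycling difference ran from 3.69 to 9.61 and the lymphatic-like difference from -10.6 to -6.69. The cycling difference was 15.2 without thinning, 3.95 with 3 or more gate UMIs and 10.9 with 8 or more, and the lymphatic-like one was -5.26 with thinning. The log2 fold change of Piezo1 (-0.07) was 0.122 without replicate 3 of both groups, -0.359 without replicate 1 of both groups, -0.222 without control replicate 1, 0.031 without control replicate 3, 0.016 without labelled knockout replicate 3, 0.00 with at least 8 gate UMIs, 0.077 with at least 3 and 0.013 without lymphatic-like cells. The causes were not tested. The labels do not say what a replicate number stands for, and correlations of deviations were 0.43, 0.239 and 0.023 for numbers 1, 2 and 3. Between libraries of different numbers they ran from -0.457 to 0.402. Without stromal-rich cells the same-number values were 0.123, -0.06 and 0.144. Same-numbered libraries did share processing, since replicate 1 of both groups was made with Cell Ranger 6.1.1 and replicate 3 lists 55357 genes against 55450 in the others. Without replicate 1 of both groups, chosen after seeing the data, 1600 genes had an unadjusted p under 0.05 and 0 were called. With the replicate block 0 genes were called, 837 had an unadjusted p under 0.05, and St8sia6 was at -2.73. The blocked exact p was 1.0 for the gated share, 0.25 for cycling, 0.5 for tip, 0.75 for sinusoidal and 0.75 for lipid genes, where 0.25 is the smallest it can give. The limiting depth was that of labelled knockout 1, with 21 cells; without it 1356 genes had an unadjusted p under 0.05 and 0 were called.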
